A study of Mus musculus with 12 samples.

Results

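Genes that mark macrophages and other myeloid cells were followed in the kidneys of diabetic db/db mice given a herbal decoction, of diabetic db/db mice given water and of db/m control mice. The 10 genes were Adgre1, Cd68, Csf1r, Itgam, Cd14, Lyz2, C1qa, C1qb, C1qc and Mrc1, and they were picked by gene name from the 57490 genes of the deposited count table. All 10 were present and all 10 passed the filter on low counts, as did 17431 genes in all. In the Model group relative to Ctrl, the 3 chains of complement C1q fell while Cd14 rose, Cd68 rose except by library size alone, and no difference passed for the receptor genes Csf1r, Adgre1 and Mrc1. No member passed between the YHY group and the Model group after adjustment. In 20 alternatives to the analysis with an adjusted P, Cd68 passed in 3 and Itgam in 1. Both also passed at 1.2-fold with an unadjusted P below 0.05.

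Macrophages live in the interstitium of the kidney, where they take up debris and apoptotic cells, and their survival depends on the CSF1 receptor, encoded by Csf1r and bound by the ligands of Csf1 and Il34. C1qa, C1qb and C1qc encode the chains that assemble into C1q, the recognition molecule of the classical complement pathway, and tissue macrophages are its main source. Cd14 encodes a receptor that passes lipopolysaccharide to TLR4, Cd68 a glycoprotein of lysosomes, Lyz2 a secreted lysozyme, and Adgre1, Itgam and Mrc1 encode surface proteins widely used to define macrophages and monocytes.

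The series held 12 libraries of polyA RNA from the kidneys of 12 male mice aged 13 weeks, with 4 mice in each of 3 groups. The Ctrl group was made of db/m mice, heterozygous for the leptin receptor mutation on the BKS strain, and the Model group of db/db mice of the strain BKS.Cg-Dock7m +/+ Leprdb/JNju, and both received purified water. The YHY group was made of db/db mice of the same strain that received a water extract of Yiqi Huoxue Yangyin Decoction (6.24 g/mL) by gavage, each day for 4 weeks, with a volume of 50 µL for every 10 g the mouse weighed, as the samples are labelled, without the name of the dose group. The tissue is labelled kidney in the samples and renal cortex in the series design, and each library came from 1 mouse and held between 24415658 and 33276634 assigned reads.

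The share of reads from the mitochondrial genome differed between the groups and is given here beside the results. It was 18.6, 22.7, 18.4 and 18.5% in the Ctrl mice, 41.2, 58.9, 55.3 and 53.4% in the Model mice and 53.8, 64.6, 54.6 and 54.2% in the YHY mice. Every db/db mouse lay far above every Ctrl mouse, and its part in the result was not tested. In bulk tissue fewer cells of a type and less RNA per cell cannot be told apart.

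All 10 members were detected in all 12 kidneys, and their levels spanned a wide range. By length-scaled level (FPKM), Lyz2 was the highest member in every group, with means of 66.1 in the Ctrl group, 109.9 in the Model group and 157 in the YHY group. In the Ctrl mice it was followed by C1qa (16.5) and C1qb (14.4), which were not ordered reliably because C1qa was above C1qb in only 2 of 4 mice. Csf1r (10.1), Cd14 (6.99), C1qc (5.55) and Cd68 (3.67) came next, with Cd14 above C1qc in 3 of 4 Ctrl mice. Adgre1 (0.858), Mrc1 (0.555) and Itgam (0.233) formed the low end, so the gene of the F4/80 antigen was among the faintest of the macrophage markers in this tissue.

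The order was different in the db/db kidneys. In the Model mice Cd14 (19.0) took the place behind Lyz2, ahead of Csf1r (9.49), C1qa (7.79), Cd68 (7.61) and C1qb (7.18). The last 4 of these were not separated mouse by mouse. C1qc (1.81) stood below them in every Model mouse. In the YHY mice Cd14 (25.8) and Cd68 (12.7) stood above C1qb (10.7), C1qa (10.5) and Csf1r (7.89) on average, although Cd68 did so over C1qb in only 3 of 4 mice and over C1qa in only 2 of 4.

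**Figure D1:**
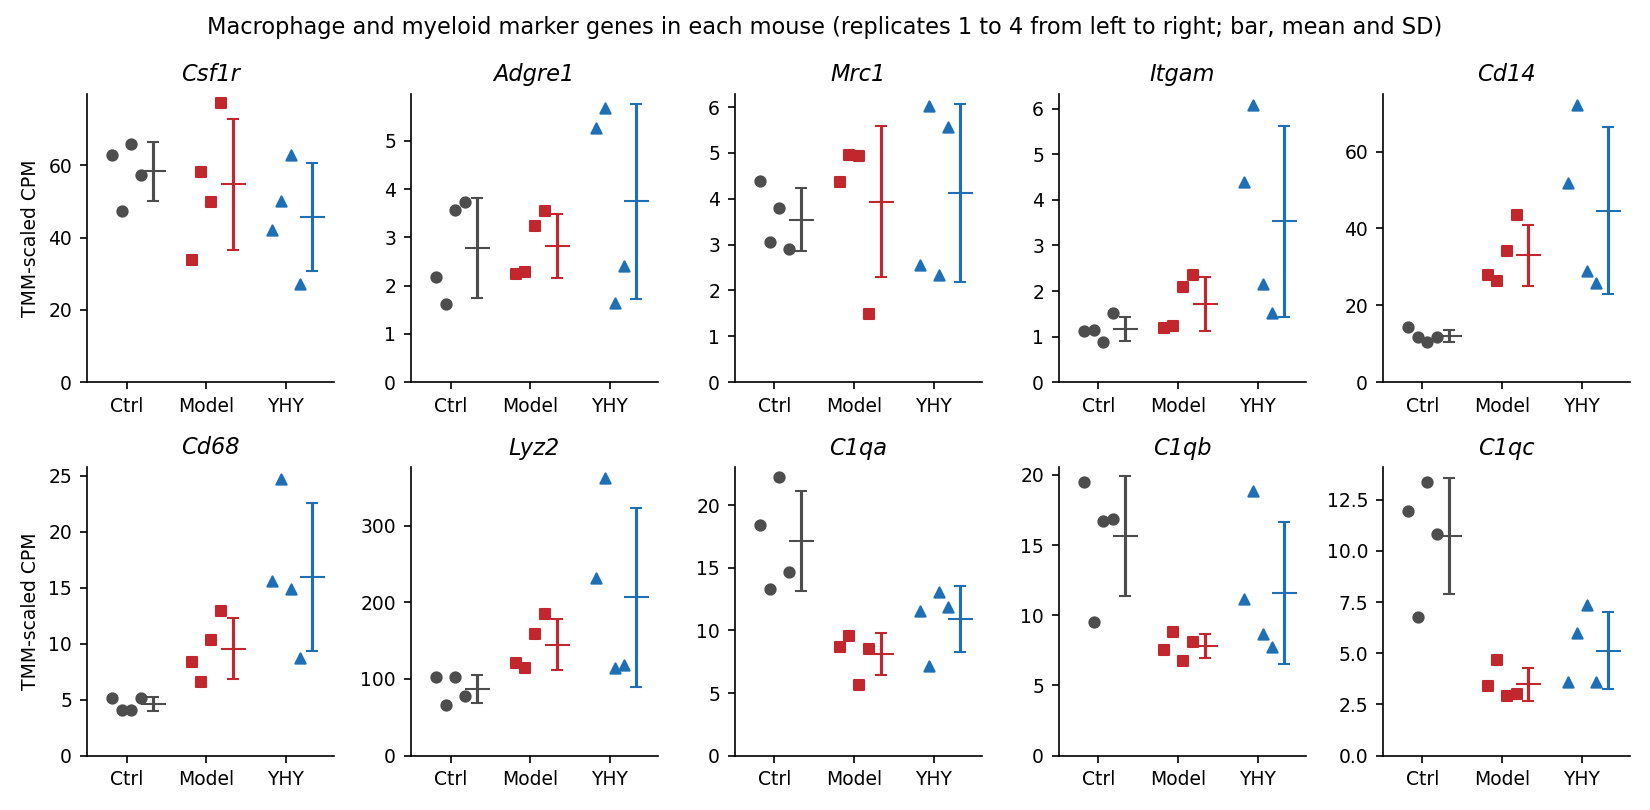
Level of each of the 10 members in each kidney, in CPM after TMM scaling, with 4 mice each in the Ctrl, Model and YHY groups. All 4 Model mice lie below all 4 Ctrl mice for C1qa, C1qb and C1qc, and above them for Cd14, Cd68 and Lyz2. The share of all genes separated in this way is not given here.

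In the Model group relative to Ctrl the members moved in opposite directions. The 3 C1q chains were lower, Cd14 and Cd68 were higher, and the other 5 members did not pass the test. With the edgeR quasi-likelihood test, 2 of the 10 members were higher and 3 were lower after Benjamini-Hochberg adjustment. Among all 17431 genes 19.6% were higher and 18.5% were lower, so calls were common in this comparison, and the median log2 fold change of all genes was 0.04. The share of all genes whose groups do not overlap mouse by mouse is not given here. Such separation of a member is therefore a description only.

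In the YHY group relative to Model none of the 10 members passed with edgeR after adjustment, and 2 of them, Cd68 and Itgam, passed before adjustment. With DESeq2 likewise 0 passed after adjustment, and 3 passed before it. Of all 17431 genes 5.63% were higher and 7.62% were lower after adjustment, and 28.6% passed in either direction before it. With 4 mice per group and a YHY group as spread as this one, a moderate difference could have been missed.

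Relative to Ctrl, 4 members were higher in the YHY group, namely Cd14, Cd68, Lyz2 and Itgam. C1qa and C1qc were lower, and C1qb did not pass. The share of all genes called was 26.1% higher and 24.2% lower. This comparison uses the same Ctrl mice as the first and the same YHY mice as the second, so the 3 comparisons are not independent.

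**Figure D2:**
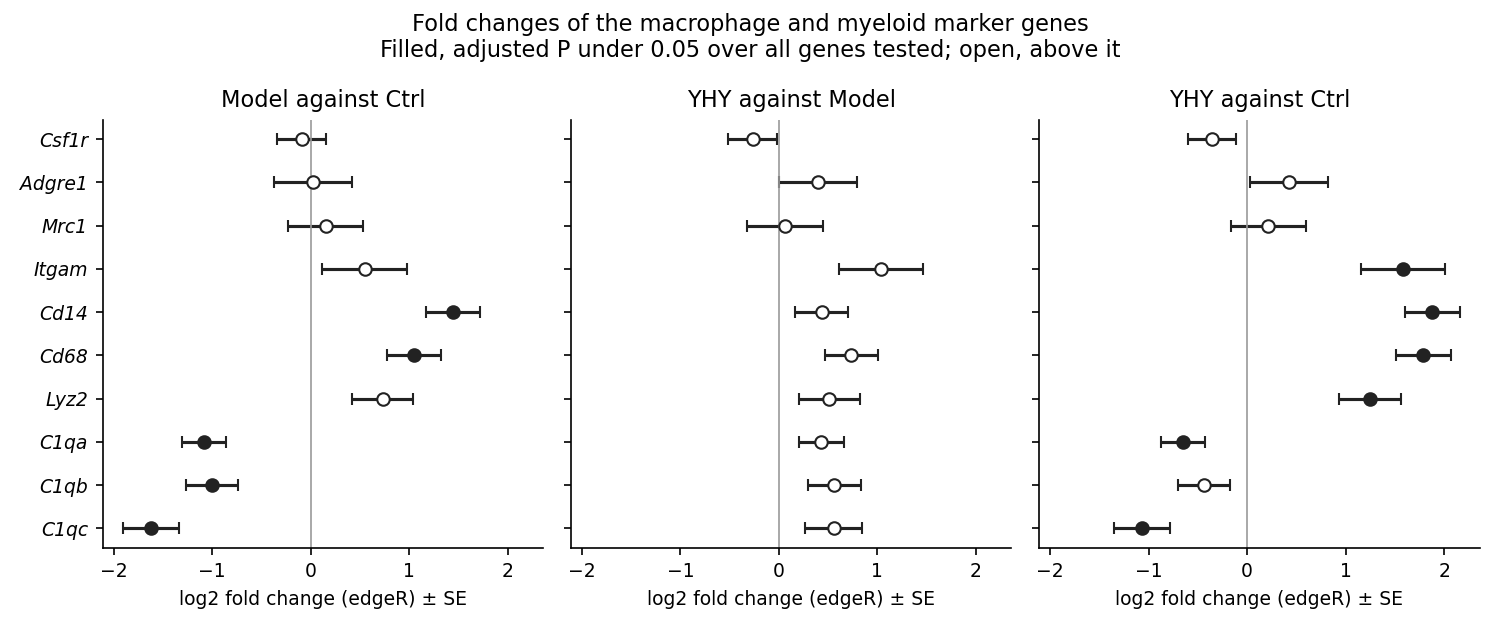
Log2 fold change of each member in the 3 comparisons, with standard errors, from edgeR quasi-likelihood fits on 4 mice per group. The C1q chains lie below 0 in the Model group relative to Ctrl (C1qc -1.62) and Cd14 lies highest (1.45).

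All 3 C1q chains fell in the Model group relative to Ctrl. In CPM, that is TMM-scaled counts relative to library size, C1qa was at 18.4, 13.3, 22.2 and 14.7 in the Ctrl mice, 8.68, 9.57, 5.66 and 8.50 in the Model mice and 11.6, 7.13, 13.1 and 11.9 in the YHY mice. All 4 Model mice were below the lowest Ctrl mouse, and all 4 YHY mice were too. In the Model group relative to Ctrl C1qa had a log2 fold change of -1.08 ± 0.23 (standard error), which is 2.12-fold lower (edgeR quasi-likelihood adjusted P = 0.00147). In the YHY group relative to Ctrl it was -0.65 ± 0.22 (edgeR quasi-likelihood adjusted P = 0.0231), a call that was lost when Ctrl 3 or YHY 2 was left out. From the Model group to the YHY group the estimate was 0.43 and did not pass (edgeR quasi-likelihood adjusted P = 0.221).

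C1qb was at 19.5, 9.54, 16.7 and 16.9 CPM in the Ctrl mice, 7.56, 8.81, 6.75 and 8.12 in the Model mice and 11.1, 18.8, 8.67 and 7.74 in the YHY mice. The Model mice were close to each other and all below the Ctrl mice, whereas YHY 2 reached the level of the highest Ctrl mice. C1qb was 2.00-fold lower in the Model group relative to Ctrl (edgeR quasi-likelihood adjusted P = 0.00772). Between the YHY group and the Ctrl group it did not pass (-0.44, edgeR quasi-likelihood adjusted P = 0.179). It passed there when YHY 2 was left out (-0.77, edgeR quasi-likelihood adjusted P = 0.0120).

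In the Model group relative to Ctrl, C1qc changed most of the 10 members. Its level was 12.0, 6.77, 13.3 and 10.8 CPM in the Ctrl mice, 3.38, 4.66, 2.92 and 2.99 in the Model mice and 3.58, 5.97, 7.36 and 3.60 in the YHY mice. The Model mice all lay below the lowest Ctrl mouse, and 3 of the 4 YHY mice did so as well, with YHY 3 inside the Ctrl range. C1qc was 3.08-fold lower in the Model group relative to Ctrl, at -1.62 ± 0.29 (edgeR quasi-likelihood adjusted P = 0.000441). It was also lower in the YHY group relative to Ctrl, at -1.07 ± 0.28 (edgeR quasi-likelihood adjusted P = 0.00504). The C1q falls had the same direction and passed in the Model group under all 20 alternatives to the analysis, including the one without TMM scaling.

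The sum of the 3 chains was 49.8, 29.7, 52.2 and 42.3 CPM in the Ctrl mice, 19.6, 23.0, 15.3 and 19.6 in the Model mice and 26.3, 31.9, 29.1 and 23.2 in the YHY mice. The YHY mice lay above the Model mice as a sum in every case but stayed below 3 of the 4 Ctrl mice. No chain passed between those 2 db/db groups. By library size alone their sums overlapped, with the lowest YHY mouse at 20.2 and the highest Model mouse at 20.5. C1qc fell further than C1qb: their length-scaled log2 ratio was between -1.53 and -1.15 in the Ctrl mice and between -2.27 and -1.74 in the Model mice, without overlap. The ratio of C1qa to C1qb overlapped between the Ctrl and Model mice. YHY 2 stood apart in it at -1.34, the only mouse whose C1qb far exceeded its C1qa.

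The chains are neighbours on chromosome 4. In the annotation of the count table (GRCm39, by the submitters' notes) C1qb lies at chr4:136607440-136613498, C1qc at chr4:136617115-136620376 and C1qa at chr4:136623228-136626114, all on the minus strand. The gaps are 3616 bases between C1qb and C1qc and 2851 bases between C1qc and C1qa, and no other gene of the table lies in the 18675 bases they span. The promoter of C1qb is printed because it carries GAGGAA, the core recognised by the macrophage factor PU.1 (gene Spi1), and that of C1qc for the same reason. Each is 300 bases, 250 before and 50 after the RefSeq start, on the minus strand of GRCm38.p6, chr4:136886151-136886450 for C1qb and chr4:136892865-136893164 for C1qc. Capitals mark GAGGAA, or TTCCTC where it stands on the opposite strand.

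C1qb promoter: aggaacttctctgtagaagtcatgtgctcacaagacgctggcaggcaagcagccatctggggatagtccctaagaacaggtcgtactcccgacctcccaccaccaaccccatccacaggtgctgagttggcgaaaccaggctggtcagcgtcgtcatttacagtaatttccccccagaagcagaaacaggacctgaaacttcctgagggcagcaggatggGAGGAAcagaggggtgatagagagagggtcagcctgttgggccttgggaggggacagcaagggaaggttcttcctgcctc

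C1qc promoter: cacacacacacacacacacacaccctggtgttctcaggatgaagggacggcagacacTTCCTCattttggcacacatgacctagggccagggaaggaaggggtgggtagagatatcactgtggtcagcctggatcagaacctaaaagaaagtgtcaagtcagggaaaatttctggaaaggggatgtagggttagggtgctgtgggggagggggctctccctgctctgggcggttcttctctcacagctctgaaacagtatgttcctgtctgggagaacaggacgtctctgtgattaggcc

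The motif stands 30 bases before the start of C1qb and 193 bases before the start of C1qc. Of the 6 members with a matched RefSeq promoter that could be searched here, 5 held GAGGAA, namely C1qb, C1qc, Cd68, Itgam and Mrc1, against 28.3% of 32841 promoters. Lyz2 had none. The motif was therefore in the promoters of members that fell, of a member that rose and of members that did not pass in the Model group relative to Ctrl. TGANTCA, the AP-1 motif, was in 1 of the 6, the promoter of Cd68, against 7.81% of all promoters. TGCTGAC, the Maf motif, was in 0 of the 6, against 4.67% of all promoters. No match says only that these letters are not in this window.

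Cd14 was the member with the clearest rise. Its level was 14.4, 11.8, 10.6 and 11.6 CPM in the Ctrl mice, 27.8, 26.4, 34.1 and 43.6 in the Model mice and 51.8, 72.0, 29.0 and 25.7 in the YHY mice. Every db/db mouse, treated or not, stood above every Ctrl mouse, and YHY 2 was highest in these TMM-scaled values. Cd14 was 2.72-fold higher in the Model group relative to Ctrl, at 1.45 ± 0.27 (edgeR quasi-likelihood adjusted P = 0.000757). For YHY relative to Ctrl it was 3.68-fold higher (edgeR quasi-likelihood adjusted P = 4.67e-05). The YHY group did not differ from the Model group (0.43, edgeR quasi-likelihood adjusted P = 0.306), with YHY 3 among the Model mice and YHY 4 just below them.

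The partners of CD14 in the sensing of lipopolysaccharide were counted next. Of 14 genes of the CD14 and Toll-like receptor 4 pathway, 2 were higher and 1 was lower in the Model group relative to Ctrl, with a median log2 fold change of 0.09. These were Lbp and Nfkbia, higher, and Ticam1, lower, named after their values were seen. Lbp, which encodes the protein that hands lipopolysaccharide to CD14, rose by 1.26 (edgeR quasi-likelihood adjusted P = 0.00620), a call lost by library size alone. Tlr4 itself did not differ (0.04, edgeR quasi-likelihood adjusted P = 0.925), nor did Ly96 (0.48, edgeR quasi-likelihood adjusted P = 0.291). None of the 14 differed between the YHY group and the Model group (median 0.10), and the same 3 genes were called in the YHY group relative to Ctrl (median 0.24). Irak1 supplied the largest share of the summed level of the list, 26.0%.

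Cd68 was at 5.16, 4.05, 4.06 and 5.19 CPM in the Ctrl mice, 8.33, 6.62, 10.4 and 12.9 in the Model mice and 15.6, 24.7, 14.9 and 8.71 in the YHY mice. All db/db mice were above all Ctrl mice, and 3 of the 4 YHY mice were above all Model mice. Cd68 was 2.07-fold higher in the Model group relative to Ctrl, at 1.05 ± 0.28 (edgeR quasi-likelihood adjusted P = 0.00730), a call lost by library size alone (0.62, edgeR quasi-likelihood adjusted P = 0.0964). The rise was 3.45-fold in the YHY group relative to Ctrl, at 1.79 ± 0.28 (edgeR quasi-likelihood adjusted P = 7.67e-05). Of the 10 members Cd68 came nearest to a difference between the YHY group and the Model group, at 0.74 ± 0.27 (edgeR quasi-likelihood adjusted P = 0.0855). It passed when YHY 4 was left out (edgeR quasi-likelihood adjusted P = 0.0169), and also with all 12 mice when no filter was used (edgeR quasi-likelihood adjusted P = 0.0472).

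Cd68 is a single gene at chr11:69555039-69556979 on the minus strand (GRCm39). Its promoter (chr11:69666121-69666420, minus strand of GRCm38.p6, 250 bases before and 50 after the start) is shown because it holds GAGGAA at 2 places, in capitals.

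Cd68 promoter: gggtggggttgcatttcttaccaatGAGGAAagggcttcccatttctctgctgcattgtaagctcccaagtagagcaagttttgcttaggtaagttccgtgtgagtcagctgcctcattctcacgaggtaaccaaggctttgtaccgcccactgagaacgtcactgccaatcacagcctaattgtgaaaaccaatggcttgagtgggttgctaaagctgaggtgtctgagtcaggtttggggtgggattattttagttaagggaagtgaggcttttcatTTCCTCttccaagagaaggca

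Lyz2 was the most abundant member in counts as well as by length. It was at 102, 65.7, 103 and 77.4 CPM in the Ctrl mice, 121, 114, 159 and 185 in the Model mice and 232, 362, 115 and 118 in the YHY mice. In these TMM-scaled values all 4 Model mice and all 4 YHY mice exceeded the highest Ctrl mouse, and YHY 1 and YHY 2 exceeded every Model mouse. By library size alone the sum of Lyz2 and Cd68 overlapped, reaching 134 in the Ctrl mice and starting at 96.1 in the Model mice. In the Model group relative to Ctrl the estimate was 0.73 ± 0.31 and did not pass (edgeR quasi-likelihood adjusted P = 0.0730). Under DESeq2 it passed (adjusted P = 0.0453), as it did with only those 8 mice in the fit (edgeR quasi-likelihood adjusted P = 0.00801) and without the filter (edgeR quasi-likelihood adjusted P = 0.0183). Lyz2 was 2.37-fold higher in the YHY group relative to Ctrl (edgeR quasi-likelihood adjusted P = 0.00355), and between the YHY and Model groups it did not differ (0.51, edgeR quasi-likelihood adjusted P = 0.294).

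Lyz2 lies at chr10:117113236-117118226, 5475 bases from its paralog Lyz1 at chr10:117123702-117128773 (GRCm39). The genes are close in sequence, so how reads were divided between them is uncertain. Lyz1, not a member, was at 1.82, 1.93, 1.64 and 1.07 CPM in the Ctrl mice, 4.70, 4.38, 5.29 and 7.95 in the Model mice and 10.5, 18.1, 3.61 and 5.58 in the YHY mice. It was far below Lyz2 in every mouse, and no db/db mouse overlapped the Ctrl mice. Lyz1 rose by 1.79 in the Model group relative to Ctrl (edgeR quasi-likelihood adjusted P = 0.00303) and by 2.54 in the YHY group relative to Ctrl (edgeR quasi-likelihood adjusted P = 0.000122).

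Csf1r encodes the receptor that defines the lineage. It was at 62.9, 47.2, 65.8 and 57.4 CPM in the Ctrl mice, 33.8, 58.2, 49.7 and 77.3 in the Model mice and 42.2, 50.2, 62.8 and 27.1 in the YHY mice. The groups overlapped throughout, and the highest and the lowest of the 12 mice, Model 4 and YHY 4, were both db/db. With TMM scaling no comparison passed for Csf1r: the estimates were -0.09 in the Model group relative to Ctrl (edgeR quasi-likelihood adjusted P = 0.802) and -0.27 in the YHY group relative to Model (edgeR quasi-likelihood adjusted P = 0.524). The YHY group relative to Ctrl stood at -0.36 (edgeR quasi-likelihood adjusted P = 0.247), and by library size alone it passed as lower (-0.78, edgeR quasi-likelihood adjusted P = 0.0282). Csf1r overlaps Hmgxb3 on the opposite strand, and since the strand setting of the counting was not stated, some of its counts could belong there, although Hmgxb3 itself held only 122 to 460 counts a mouse.

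Around the receptor the ligands moved apart. Of 9 tested genes of the CSF1 receptor pathway (10 on the list), 4 were higher and 1 was lower in the Model group relative to Ctrl, with a median of 0.49. Named after their values were seen, the higher ones were Csf1, Csf2ra, Syk and Inpp5d, and the lower one was Il34. Csf1 rose by 0.55 (edgeR quasi-likelihood adjusted P = 0.0189), a call lost in 7 of 20 alternatives. Il34 fell by -1.11 (edgeR quasi-likelihood adjusted P = 0.00129). For YHY relative to Model only Inpp5d of this list passed, and it was higher (median 0.24). Relative to the Ctrl group 5 genes were higher and 1 was lower in the YHY mice (median 0.65), with Csf1 at 0.65 (edgeR quasi-likelihood adjusted P = 0.00464) and Il34 at -1.13 (edgeR quasi-likelihood adjusted P = 0.000667). Grb2, expressed in nearly all cells, supplied 33.9% of the summed level.

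Adgre1 was at 2.18, 1.62, 3.57 and 3.73 CPM in the Ctrl mice, 2.25, 2.28, 3.24 and 3.55 in the Model mice and 5.26, 5.69, 1.64 and 2.40 in the YHY mice. The Ctrl and Model mice spanned nearly the same range, while YHY 1 and YHY 2 were highest and YHY 3 was near the bottom. Adgre1 did not differ in the Model group relative to Ctrl (0.02, edgeR quasi-likelihood adjusted P = 0.970), and the sign of this small estimate turned in 7 alternatives. Nor did it differ in the YHY group relative to Model (0.40, edgeR quasi-likelihood adjusted P = 0.554).

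For Mrc1 the levels were 4.39, 3.06, 3.79 and 2.91 CPM in the Ctrl mice, 4.37, 4.95, 4.93 and 1.50 in the Model mice and 2.55, 6.02, 2.34 and 5.58 in the YHY mice. Model 4 was the lowest of all 12 mice and the other Model mice were among the higher ones, so the groups overlapped. Mrc1 did not differ in the Model group relative to Ctrl (0.15, edgeR quasi-likelihood adjusted P = 0.783) or in the YHY group relative to Model (0.06, edgeR quasi-likelihood adjusted P = 0.944). Without TMM scaling its sign turned, still without passing.

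Itgam was faint, at 1.13, 1.15, 0.881 and 1.52 CPM in the Ctrl mice, 1.19, 1.24, 2.10 and 2.35 in the Model mice and 4.38, 6.08, 2.16 and 1.51 in the YHY mice. YHY 1 and YHY 2 stood well above all others, and 3 of the 4 YHY mice were above every Ctrl mouse. Itgam was 2.99-fold higher in the YHY group relative to Ctrl, at 1.58 ± 0.43 (edgeR quasi-likelihood adjusted P = 0.00600). It did not pass in the Model group relative to Ctrl (0.55, edgeR quasi-likelihood adjusted P = 0.334). Between the YHY and Model groups it stood at 1.03 ± 0.43 (edgeR quasi-likelihood adjusted P = 0.122), and it passed when YHY 4 was left out (edgeR quasi-likelihood adjusted P = 0.0402).

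Ratios within a library do not depend on how libraries are scaled. Those to the C1q chains share a denominator that was lower in the Model mice, so each holds the C1q fall and adds no separate evidence. Relative to the mean of the 3 C1q chains, the length-scaled level of Cd14 was 6.23-fold higher in the Model group than in the Ctrl group. The difference was 4.69-fold for Cd68, 3.85-fold for Lyz2 and 3.31-fold for Itgam. Csf1r, which did not pass as a single gene, was 2.10-fold higher relative to the C1q chains, and Adgre1 was 2.45-fold higher. All 4 Model mice lay above all 4 Ctrl mice in each of these ratios. For Mrc1 (2.36-fold) Model 4 lay among the Ctrl mice. None of these ratios separated the YHY mice from the Model mice.

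**Figure D3:**
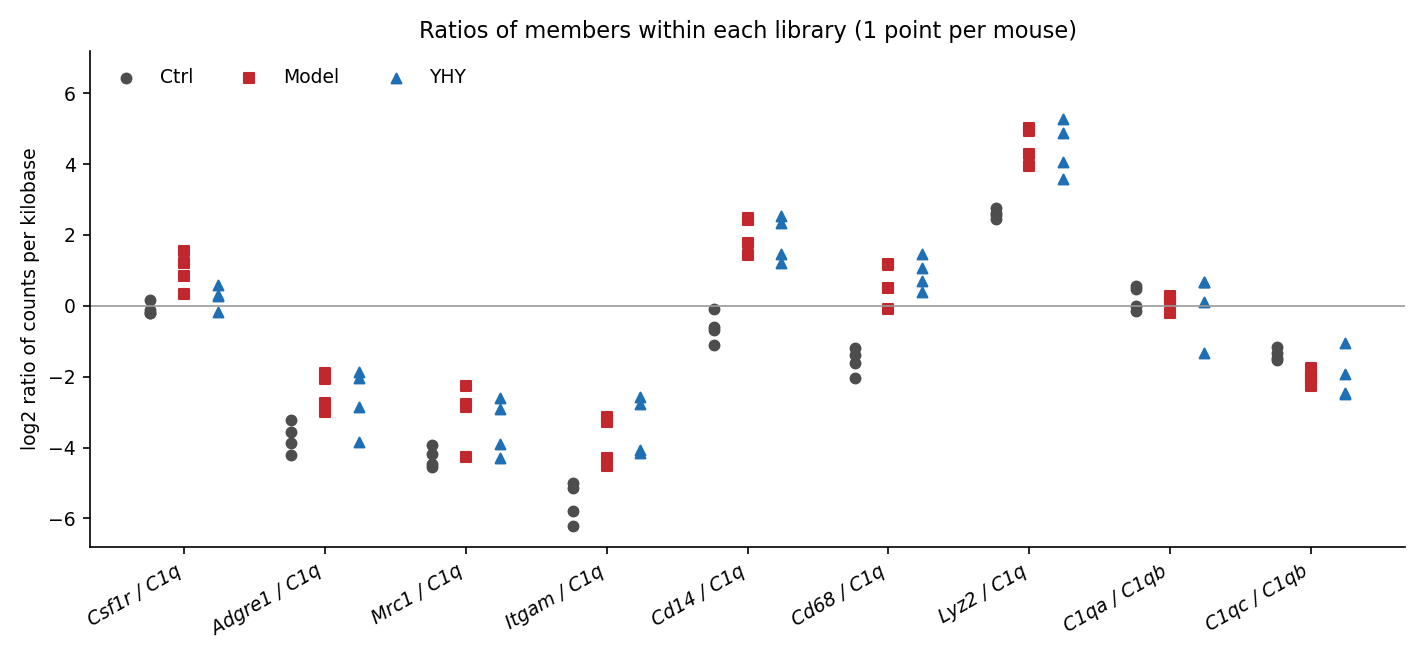
Log2 ratio of each other member to the mean of the 3 C1q chains, and of the C1q chains to C1qb, from counts per kilobase, with 1 point for each mouse of the 3 groups. For Cd14 the group mean went from -0.62 in the Ctrl mice to 2.02 in the Model mice, and for Csf1r from -0.09 to 0.98.

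Single mice differed in many members at once. In TMM-scaled CPM, YHY 2 was the highest of all 12 mice for 6 members and the highest of its group for 7. Its TMM factor was the lowest of all mice (0.720), which raises its CPM, and its mitochondrial share was the highest (64.6%). YHY 1, with a similar total count, held more counts than YHY 2 for Adgre1 (138 against 103), Itgam (115 against 110) and Cd14 (1358 against 1304). It held fewer for Cd68, Lyz2 and Mrc1. Model 4 was the highest of its group for Adgre1, Cd68, Csf1r, Itgam, Cd14 and Lyz2, and Ctrl 2 was the lowest of its group for 7 members. YHY 4 was the lowest of its group for 5. Within the groups (deviations from the group mean, n = 12 mice) C1qb followed the mean of the other members most closely (r = 0.89), then Lyz2 (0.87), Cd14 (0.75), Cd68 (0.73), Itgam (0.69) and Adgre1 (0.66). Csf1r (0.48) and C1qc (0.30) did so less, and Mrc1 (-0.15) and C1qa (-0.39) not at all. Among 12693 other genes the nearest to the mean of the members across the 12 mice were Crtc3 (r = 0.96), Dync1i2 (0.96), Kat5 (0.94), Abca5 (0.94) and Mpzl3 (0.93). These are the top of a long ranking over few mice, and how high r reaches by chance was not tested.

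None of the 6 genes that act with C1q in the classical pathway was called in the 3 comparisons, and the medians were 0.27, 0.05 and 0.47. C1ra (0.08, edgeR quasi-likelihood adjusted P = 0.846), C1s1 (0.46, edgeR quasi-likelihood adjusted P = 0.193) and C4b (-0.28, edgeR quasi-likelihood adjusted P = 0.526) did not differ in the Model group relative to Ctrl. Serping1 supplied 43.1% of their sum. In the kidney these genes can also be expressed by cells other than macrophages, and which cells made them was not measured. C3 was at 17.4, 16.6, 13.3 and 82.2 CPM in the Ctrl mice, 72.4, 72.3, 48.8 and 38.4 in the Model mice and 48.5, 45.2, 55.2 and 51.8 in the YHY mice, so every db/db mouse was above 3 of the 4 Ctrl mice and below Ctrl 4. C3 did not pass in the Model group relative to Ctrl (0.84, edgeR quasi-likelihood adjusted P = 0.148), and it passed without Ctrl 4 (1.83, edgeR quasi-likelihood adjusted P = 4.72e-05).

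Macrophage genes outside the members were called in both directions. Of 26 tested genes (30 on the list), 7 were higher and 2 were lower in the Model group relative to Ctrl, with a median of 0.09. The 2 lower ones were Ms4a7 and Ms4a6c. The counts of Ms4a7 were 29, 22, 72 and 26 in the Ctrl mice, 2, 0, 0 and 8 in the Model mice and 2, 0, 0 and 8 in the YHY mice (edgeR quasi-likelihood adjusted P = 0.0301 in the Model group relative to Ctrl). Those of Ms4a6c were 21, 10, 22 and 6, then 2, 2, 0 and 0, then 14, 14, 6 and 4. Both had very low counts, and both calls were lost on leaving out some single mice. Among the higher ones Lilrb4a rose by 1.98 (edgeR quasi-likelihood adjusted P = 0.00165).

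In the YHY group relative to Model 2 of these 26 genes were higher and 1 was lower (median 0.46). They were Mertk and Ms4a6c, higher, and Fcgr2b, lower. Mertk rose by 0.64 (edgeR quasi-likelihood adjusted P = 0.0397) and Fcgr2b fell by -0.81 (edgeR quasi-likelihood adjusted P = 0.0278), and these calls were lost in 10 and 6 of 20 alternatives. The call of Ms4a6c was lost in 11 of the 18 alternatives in which it could be tested. Relative to the Ctrl group 11 were higher and 2 were lower in the YHY mice (median 0.37). The summed level was 174, 165, 176 and 141 CPM in the Ctrl mice, 191, 169, 190.4 and 187 in the Model mice and 203, 328, 163 and 175 in the YHY mice. With TMM scaling YHY 2 alone stood far out. By library size alone the highest YHY mouse was at 236 and the highest Ctrl mouse at 218. Mertk was the most abundant (15.1% of the sum), and Marco and Timd4 were at 0 in all mice.

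The pan-leukocyte genes gave calls in 1 direction only. Of all genes 19.6% were higher in the Model group relative to Ctrl and 26.1% in the YHY group relative to Ctrl. A difference from these shares was not tested for any gene list. Of 12 pan-leukocyte genes 3 were higher and 0 were lower in the Model group relative to Ctrl (median 0.39), 0 were called between the YHY and Model groups (median 0.30), and 6 were higher in the YHY group relative to Ctrl (median 0.77). The 3 were Cd53, Itgb2 and Vav1, named after their values were seen. Their summed level was 93.2, 64.2, 82.4 and 80.3 CPM in the Ctrl mice, 86.2, 76.9, 98.4 and 108 in the Model mice and 133, 179, 77.6 and 75.5 in the YHY mice, with Ctrl and Model mice overlapping. Lcp1 was the most abundant (27.4%) and did not differ (-0.26, edgeR quasi-likelihood adjusted P = 0.394), nor did Ptprc (-0.19, edgeR quasi-likelihood adjusted P = 0.604).

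The ligands that draw monocytes were split, with the most abundant of them lower. Of 7 tested (8 on the list) 4 were higher and 1 was lower in the Model group relative to Ctrl (median 1.44), and the same numbers were called in the YHY group relative to Ctrl (median 2.15). Named after their values were seen, Ccl2, Ccl7, Ccl3 and Ccl4 were higher and Cx3cl1, 59.9% of the sum, was lower. None was called between the YHY and Model groups (median 0.55). Genes of monocytes themselves were counted too. Of 10 tested (12 on the list) 0 were higher and only Ace was lower in the Model group (median -0.37), 0 were called between the YHY and Model groups (median 0.52), and 1 was higher and 2 were lower in the YHY group relative to Ctrl (median 0.10). Ace fell by -2.10 (edgeR quasi-likelihood adjusted P = 5.13e-06), but it is also a gene of the proximal tubule brush border and made up 38.3% of the sum of the list.

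Genes of macrophage activation were called in both directions. Of 9 tested (16 on the list) 3 were higher and 0 were lower in the Model group relative to Ctrl (median 0.84). Named after their values were seen, these were Nos2, Tnf and Ptgs2, and Tnf rose by 2.22 (edgeR quasi-likelihood adjusted P = 0.00103). Between the YHY and Model groups only Tgm2 was called, and it fell by -0.67 (edgeR quasi-likelihood adjusted P = 0.00748, list median 0.28). Tgm2 is also made by endothelial cells and carried 74.1% of the sum, and it was called lower in the Model group relative to Ctrl in 4 of 20 alternatives. For YHY relative to Ctrl 4 were higher and 1 was lower (median 1.14).

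Genes of lipid-associated macrophages were split. Of 12 genes 2 were higher and 2 were lower in the Model group relative to Ctrl (median 0.08), 0 were higher and 1 was lower in the YHY group relative to Model (median 0.13), and 4 were higher and 4 were lower in the YHY group relative to Ctrl (median 0.33). Named after their values were seen, Trem2 and Gpnmb were the higher and Lpl and Cd36 the lower ones in the Model group, and Ctsd was lower in the YHY group relative to Model, a call lost in 16 of 20 alternatives. Gpnmb rose by 2.01 (edgeR quasi-likelihood adjusted P = 0.000743), whereas Cd36, also a gene of tubule and endothelial cells, fell by -2.85 (edgeR quasi-likelihood adjusted P = 2.38e-06). Cd63 held 30.6% of the sum.

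**Figure D4:**
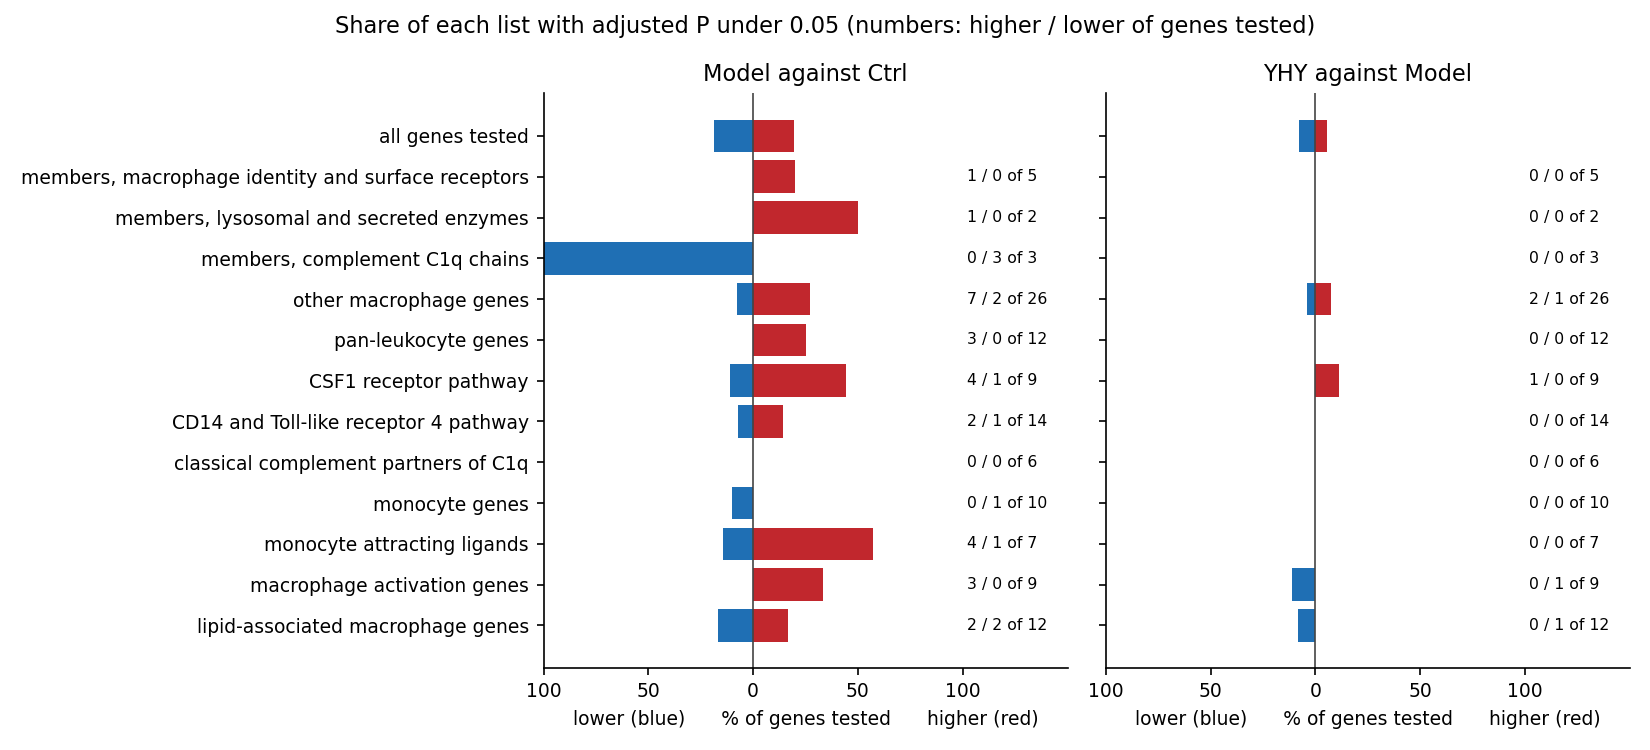
Share of the tested genes of each list called higher (right) or lower (left) by edgeR with Benjamini-Hochberg adjustment, in the Model group against the Ctrl group and in the YHY group against the Model group. In the Model group the C1q chains (0 higher, 3 lower of 3) stand opposite the monocyte attracting ligands (4 higher, 1 lower of 7).

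Other blood cells gave few calls, and many of their genes were too faint to test. Of 4 tested neutrophil genes (12 on the list) 0 were called in any comparison (medians -0.28, -0.04 and -0.39), with Mpo at 0 in all mice and S100a8 the most abundant. The summed neutrophil level was 8.28, 5.02, 3.43 and 18.5 CPM in the Ctrl mice, 9.75, 6.33, 5.48 and 9.53 in the Model mice and 13.3, 10.9, 2.98 and 2.67 in the YHY mice. It was highest in Ctrl 4, followed by YHY 1 and YHY 2. Itgam, which neutrophils also express, was highest in YHY 1 and YHY 2. S100a8 was highest in YHY 2, at 9.28 CPM against 4.85 in Ctrl 4. The part of neutrophils in the Itgam level was not tested. Of 9 tested T cell genes (12 on the list) 0 were called (medians -1.38, 0.57 and -0.26), and of 2 tested natural killer cell genes (7 on the list) 0 were called (medians -1.46, 0.53 and -0.93). The 1 mast cell gene tested (of 6), Ms4a2, was not called, and Mcpt4 and Cma1 were at 0. Of 4 tested B cell and plasma cell genes (9 on the list) Jchain alone was called, at -2.15 in the Model group relative to Ctrl (edgeR quasi-likelihood adjusted P = 0.0318) and 2.63 in the YHY group relative to Model (edgeR quasi-likelihood adjusted P = 0.0308). These calls of Jchain were lost in 8 and 5 of 20 alternatives. Leaving out single mice moved the estimate for YHY relative to Model between 1.36 and 3.16. Jchain was at 23.7 CPM in YHY 3 against 1.82 to 6.67 in the other YHY mice. Of 8 tested dendritic cell genes (10 on the list) Zbtb46 alone was called, at 1.05 in the Model group relative to Ctrl (edgeR quasi-likelihood adjusted P = 0.00141).

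Blood and neighbouring tissue were looked at for what was carried along with the kidney. Of 8 red blood cell and platelet genes 2 were higher and 3 were lower in the Model group relative to Ctrl (median -0.13), 2 were higher in the YHY group relative to Model (median 1.02) and 4 were higher in the YHY group relative to Ctrl (median 0.79). The sum of these genes was 466, 318, 380.3 and 693 CPM in the Ctrl mice, 486, 445, 306 and 285 in the Model mice and 510.0, 346, 806 and 1074 in the YHY mice, with overlap between all groups. YHY 4, lowest of its group for 5 members, was highest here. Of 3 tested adipocyte genes (8 on the list) Lipe, named after its values were seen, was higher in the Model group relative to Ctrl, and Car3 was lower in the YHY group relative to Model at -2.29 (edgeR quasi-likelihood adjusted P = 0.000170). The 1 adrenal cortex gene tested (of 6), Star, was higher in the Model group relative to Ctrl at 1.32 (edgeR quasi-likelihood adjusted P = 0.00128), and Cyp11b2 was at 0.

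Genes of the main cell types of the kidney were counted in the same way. Proximal tubule genes were mostly lower where they were called: of 10, 0 were higher and 5 lower in the Model group relative to Ctrl (median -0.82), 2 lower in the YHY group relative to Model (median -0.65), and 1 higher and 7 lower in the YHY group relative to Ctrl (median -1.56). Their sum was 5814, 6951, 6056 and 5051 CPM in the Ctrl mice, 4078, 4019, 4485 and 3666 in the Model mice and 1838, 3478, 2329 and 4409 in the YHY mice. Every db/db mouse was below every Ctrl mouse, as for C1qa, although Slc34a1, the largest of the list, did not differ (0.06, edgeR quasi-likelihood adjusted P = 0.893). YHY 1, high for Cd14, Cd68 and Lyz2, had the lowest sum.

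The remaining kidney lists also gave calls in the Model group relative to Ctrl, where 19.6% of all genes were higher and 18.5% lower. A difference from these shares was not tested. Of 12 endothelial genes 4 were higher and 0 lower in the Model group relative to Ctrl (median 0.22), 0 were called between the YHY and Model groups (median 0.13) and 6 were higher in the YHY group relative to Ctrl (median 0.36). Of 10 fibroblast, mesangial and smooth muscle genes 3 were higher (median 0.13), 1 was higher (median 0.16) and 3 were higher (median 0.22) in the same 3 comparisons. Of 7 podocyte genes 3 were higher (median 0.59), 0 were called (median -0.24), and 3 were higher and 1 was lower (median 0.19).

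Among 6 loop and distal tubule genes 1 was higher and 2 were lower in the Model group relative to Ctrl (median 0.11), 1 was lower in the YHY group relative to Model (median 0.00), and 1 was higher and 3 were lower in the YHY group relative to Ctrl (median -0.77). Among 6 collecting duct genes 2 were lower (median -0.18), 1 was lower (median -0.23), and 1 was higher and 3 were lower (median -0.67) in these comparisons. The single genes lower in the YHY group relative to Model, named after their values were seen, were Pvalb and Atp6v1g3. Of 6 tubule injury genes 2 were lower (median -0.58), 1 was higher (median 0.32) and 2 were lower (median 0.40). Clu, the largest of that list, was lower in the Model group relative to Ctrl (-1.49, edgeR quasi-likelihood adjusted P = 0.00424).

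**Figure D5:**
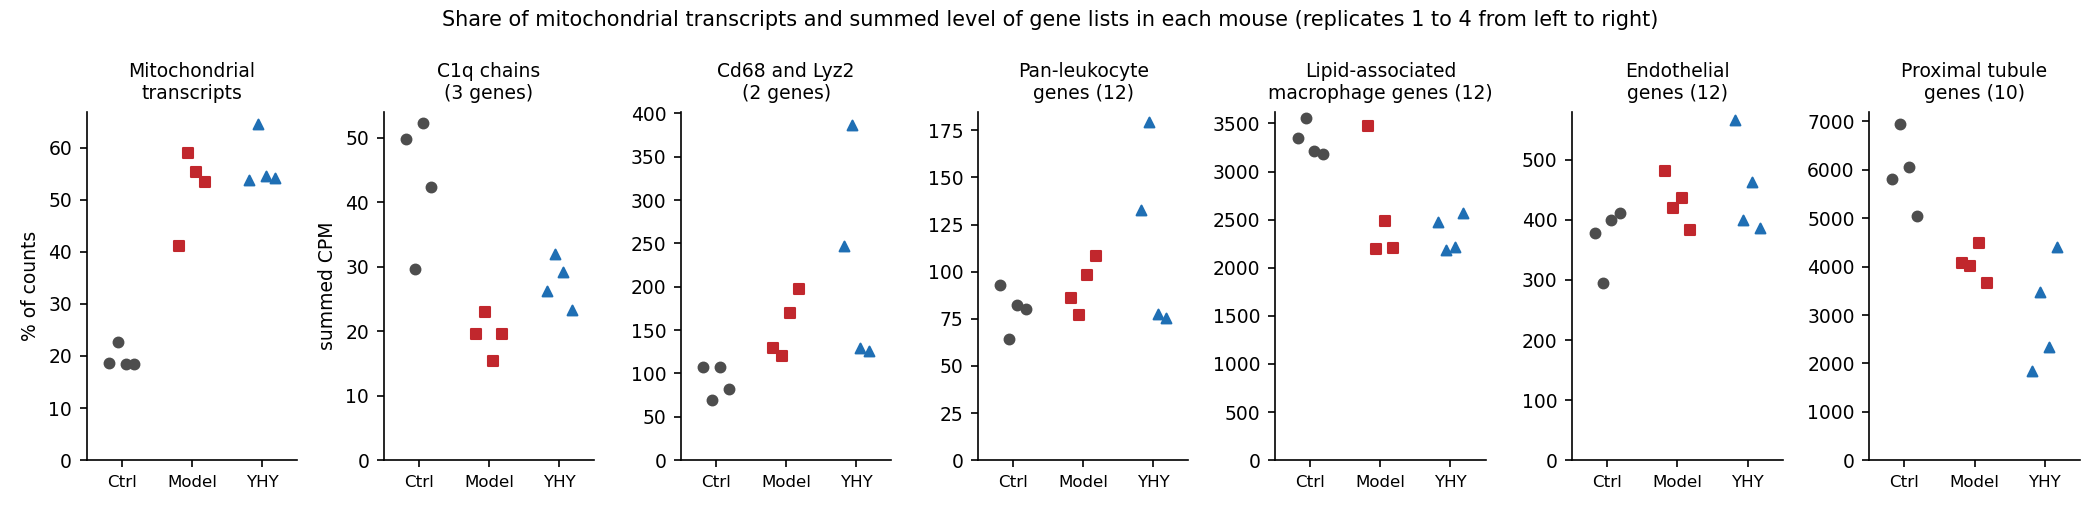
Share of counts from the mitochondrial genome (percent) and summed level of 6 gene lists (CPM) in each of the 4 mice of the Ctrl, Model and YHY groups. The Ctrl mice lie between 18.4 and 22.7% and the db/db mice between 41.2 and 64.6%, and the C1q sum reaches at most 23.0 in the Model mice.

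The scaling between libraries matters for single genes here. By library size alone the median log2 fold change of all genes in the Model group relative to Ctrl was -0.39, against 0.04 with TMM. The falls of C1qa, C1qb and C1qc and the rise of Cd14 passed either way, whereas Cd68 passed only with a correction for composition.

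In these kidneys 2 of the 10 members were higher and 3 were lower in the Model group relative to Ctrl, against 19.6% and 18.5% of all genes. The C1q chains were lower, Cd14 and, with TMM scaling, Cd68 were higher, and no difference passed for Csf1r, Adgre1, Mrc1 or Itgam. Lyz2 was higher in every diabetic mouse with TMM scaling, but passed the adjusted test in 5 of 20 alternatives only. Relative to the Ctrl mice, the YHY mice had Cd14, Cd68, Lyz2 and Itgam higher and C1qa and C1qc lower, while C1qb did not pass. Between them and the Model mice no member passed after adjustment. Among the 20 alternatives with an adjusted P, Cd68 passed in 3 and Itgam in 1. Both also passed at 1.2-fold with an unadjusted P below 0.05. A moderate difference could have been missed. The data are RNA from bulk kidney tissue of 4 male mice per group at 1 age, and neither macrophage number nor protein was measured.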

How the data were processed

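RNA sequencing of polyA RNA from mouse kidney was measured in 12 libraries, and the analysis started from the raw counts per gene the authors deposited. According to the submitters' processing notes, the upstream tools were FastQC 0.11.9, Trimmomatic 0.39, HISAT2 2.2.1, SAMtools 1.12, featureCounts 2.0.1 of Subread, DESeq2 1.34.0 and R 4.1.2, with the genome builds GRCm39 and mm39. The strand setting of the counting was not stated. The deposited comparison and pathway tables hold the authors' own fold changes and p-values and were not used here. Their 12 columns with a value for each mouse were not used either.

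Genes were filtered with filterByExpr and libraries were scaled by TMM. The 3 groups were fitted together with edgeR 4.0.16 (glmQLFit and glmQLFTest), each mouse as 1 replicate. P values were adjusted by Benjamini-Hochberg over the 17431 genes tested in each comparison, and a gene was called at an adjusted P below 0.05. The statistics ran in R 4.3.3, with DESeq2 1.42.0 as the second method. Tables and drawings were made with pandas 2.3.3, matplotlib 3.10.9 and numpy 2.4.6 under Python 3.11.15. Levels per mouse are CPM (counts scaled by TMM library size), and FPKM divides them by the gene length of the table.

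Genes other than members were named by a fixed rule: the most abundant gene of each list, the called genes of the macrophage, monocyte and leukocyte lists with the largest rise and fall, the ligands and partners of the members, Lyz1, Ptprc, and the 5 genes most like the members. Genes at 0 in all mice and the gene overlapping Csf1r are named outside this rule, after their values were seen, and other genes outside it are marked so in the text. The lists were macrophage, pan-leukocyte, CSF1 receptor, CD14 and Toll-like receptor 4, classical complement, monocyte, monocyte attracting ligand, activation, lipid-associated, neutrophil, dendritic, T cell, B cell and plasma cell, natural killer, mast cell, red blood cell and platelet, adipocyte, adrenal cortex, endothelial, fibroblast and smooth muscle, podocyte, proximal tubule, loop and distal tubule, collecting duct and tubule injury genes. The members, these lists and the rule were chosen with earlier results of these data known.

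Promoters were taken from RefSeq transcripts of GRCm38.p6, and motif shares were counted on both strands in all such promoters. The alternatives were DESeq2, library size alone, TMM on genes outside the mitochondrial genome, no filter, a filter of at least 10 counts in every mouse, a threshold of 1.2-fold with an unadjusted P below 0.05, only the 8 mice compared, a block for replicate number, 9 mice (without Ctrl 2, Model 1 and YHY 4) and leaving out each mouse in turn. The 9 mice are those matched in earlier work to the group means of the comparison tables, and which mice the submitters compared is not certain, as a table header names a YHY mouse more than once. Tallies out of 20 alternatives leave out the 1.2-fold rule, which was applied only to the counts of called genes and members. The scripts were tested on simulated data before use.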

Additional observations from a re-analysis of the deposited data

Results flagged for a closer look

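In each group of 4 mice, the mouse furthest from the other 3 was compared with their spread by Dixon's ratio for 4 values. By chance about 1 in 20 groups passes, and 14 of the 213 groups checked did.

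Among the members only Mrc1 was involved, with Model 4 at 1.50 CPM against 4.37 to 4.95 in the other Model mice. Among other macrophage genes Lilrb4a was at 5.25 in Model 4 against 2.44 to 2.87, and Ms4a7 was at 1.76 in Ctrl 3 against 0.591 to 0.696. Lcp1 was at 23.4 in Ctrl 2 against 28.2 to 28.9, and Tgm2 was at 122 in Ctrl 2 against 108 to 110.3. Ace was at 78.7 in Ctrl 4 against 110.0 to 112 in the other Ctrl mice, and at 24.4 in YHY 2 against 15.8 to 16.0 in the other YHY mice. Cd63 was at 975 in YHY 4 against 499.5 to 548.

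Of the genes of other cells and of complement, Trac was at 3.12 in YHY 3 against 0.116 to 0.610, Jchain was at 1.59 in Ctrl 4 against 7.19 to 7.99, and C3 was at 82.2 in Ctrl 4 against 13.3 to 17.4. The total count of Ctrl 2 was 29632718 against 32677732 to 33276634 in the other Ctrl mice. The mitochondrial share of Ctrl 2 was 22.7% against 18.4 to 18.6%, and that of YHY 2 was 64.6% against 53.8 to 54.6%.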

How the results depend on the processing

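Among the 60 genes followed through the alternatives, no direction of a called result was reversed. Other called genes were not followed one by one. Of 200 values of the members per comparison, 184 were the same in the Model group relative to Ctrl, 192 in the YHY group relative to Model and 191 in the YHY group relative to Ctrl. Calls were lost in 1, 0 and 2 of them and gained in 5, 4 and 3. The other 10, 4 and 4 values moved without a call being lost or gained.

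By library size alone, 1547 genes were higher and 5670 lower in the Model group relative to Ctrl, and 1 member was higher, because Cd68 did not pass. For YHY relative to Model 491 were then higher and 687 lower. In the YHY group relative to Ctrl 2365 genes were higher and 4 members were lower, as Csf1r (edgeR adjusted P = 0.0282) and C1qb (edgeR adjusted P = 0.00757) passed as well. This scaling lacks the correction for composition that TMM makes. When genes were called at 1.2-fold with an unadjusted P below 0.05, 2429 genes were higher and 2559 lower in the YHY group relative to Model, and 2 members were higher. With only the 8 mice compared 692 genes were lower there. Without the filter 1 member, Cd68, was higher there (edgeR adjusted P = 0.0472), as it was in the 9 mice without Ctrl 2, Model 1 and YHY 4 (edgeR adjusted P = 0.0449), a set that may not be the one the submitters compared. The cause of these shifts was not tested.

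Leaving out each mouse in turn gave 2507 to 3624 genes higher, 2596 to 3711 lower, 2 to 3 members higher and 3 to 3 lower in the Model group relative to Ctrl. For YHY relative to Model it gave 419 to 1043 higher, 727 to 1678 lower, 0 to 2 members higher and 0 to 0 lower. In the YHY group relative to Ctrl it gave 3711 to 4492 higher, 3974 to 4567 lower, 4 to 4 members higher and 1 to 2 lower. Between the YHY and Model groups, 634 genes were higher without Model 1, 600 without Model 4, and 419 higher and 727 lower without Model 3. Without YHY 4, Cd68 and Itgam passed. Without YHY 2, Lyz2 passed in the Model group relative to Ctrl (edgeR adjusted P = 0.0260), as it did without YHY 4 (edgeR adjusted P = 0.0459). In the YHY group relative to Ctrl C1qa did not pass without Ctrl 3 (edgeR adjusted P = 0.0723) or YHY 2 (edgeR adjusted P = 0.0646).

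With replicate number as a block, 3212 genes were higher and 3077 lower in the Model group relative to Ctrl, 793 and 1127 in the YHY group relative to Model, and 4259 and 4165 in the YHY group relative to Ctrl. The members called were the same as without the block. Mice of the same number correlated at -0.21 to 0.17 in 12 pairs, and 2 of 12 mice matched their own number best, so the samples share only a number. The within-library ratios kept to their spread in 243 of 243 values, and 32 of 168 list sums moved, all by library size alone. For Trac, Klrk1, Ms4a2, Ms4a7 and Ms4a6c 23 values were not run because the genes fell below a filter.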
